A study of Saccharomyces cerevisiae with 17 samples.

Results

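The comparison set 3 yeast libraries that lacked UPF1 (NAM7 in the gene annotation) beside 3 that lacked NMD4, which is 6 of the 17 libraries of the series. It asked which RNAs needed Upf1 but not Nmd4 to stay low, and which went the other way. Every gene that passed a low-count minimum was a member, which left 6198 of the 6692 genes in the count table. All strains were Saccharomyces cerevisiae BY4741, of mating type MATa, with the LEU2 plasmid pRS415, grown in SD-LEU medium to mid-log phase, and poly(A) RNA was sequenced. The upf1Δ strain was upf1delta::KlURA3 and the nmd4Δ strain nmd4delta::KlURA3, so both carried the same KlURA3 marker where the deleted gene had been. The wild type lacked KlURA3, and its 2 libraries of batch 1 were used only to say on which side of a normal level each strain lay. The 3 libraries of ebs1delta::KlURA3, from the same batch, carried the marker too and are given where their level bears on a gene. A second batch held 3 further nmd4Δ libraries and no upf1Δ library, and served only as a check. The sources used here do not say whether the replicates of a strain came from separate clones.

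Nonsense-mediated decay (NMD) removes mRNAs on which a ribosome stops translating too early, because of a premature stop codon, a retained intron, a frameshift or a short upstream reading frame. Upf1, an ATP-dependent RNA helicase, is required for the pathway in yeast and works with Upf2 and Upf3. Nmd4 is a small protein with a PIN domain that binds the helicase part of Upf1, and Ebs1 is another yeast factor linked to NMD; yeast without either still carries out much of its NMD. In yeast, an RNA that rises when Upf1 is lost can be a direct target or can lie downstream of one, and levels of total RNA do not separate these.

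The deleted genes matched the labels. In upf1Δ, NAM7 was left with 5 to 59 reads per library, against 4625 to 5726 in nmd4Δ. In nmd4Δ, NMD4 kept 17 to 32 reads, against 2560 to 2821 in upf1Δ. The upf1Δ libraries held 22687775 to 25245522 counts and the nmd4Δ libraries 23991516 to 29668069. NMD4 mRNA was itself higher in upf1Δ than in wild type, at 105, 109 and 102 CPM (read counts scaled to the size of the library) against 31.03 and 34.4, a log2 difference of 1.69 ± 0.082 (standard error; adjusted p = 3.96e-10). NAM7 mRNA in nmd4Δ, at 208, 192 and 201 CPM, lay near its wild type values of 176 and 178, and the difference did not pass the test (adjusted p = 0.795).

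Loss of Upf1 and loss of Nmd4 left different transcriptomes. With edgeR's quasi-likelihood test and Benjamini-Hochberg adjustment over all 6198 genes at 0.05, 2124 genes were higher in upf1Δ than in nmd4Δ (34.3% of genes tested) and 1674 were higher in nmd4Δ (27%), 3798 in all (61.3%). The sizes were unequal. Of the first, 838 were at least 2-fold higher (13.5% of genes tested), and of the second 16 were (0.258%). Of the 838, 85 reached the low-count minimum only through their upf1Δ libraries and so had to be higher there, and none of the 16 reached it only through nmd4Δ. Without such genes, 753 of 6075 were at least 2-fold higher in upf1Δ (12.4%). The median size was 0.79 on the log2 scale for the 2124 and 0.29 for the 1674. The 3 upf1Δ and the 3 nmd4Δ libraries did not overlap for 4255 genes (68.7%), among them 835 of the 838 and all 16. Among genes with at least 10 CPM on average, 427 were at least 2-fold higher in upf1Δ and 9 in nmd4Δ. That average runs over all batch 1 libraries, upf1Δ included, so a gene can reach it through upf1Δ alone. The p-values measure the spread between these libraries, and because values are shares of a library, a rise of many RNAs lowers the share of the others.

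**Figure D1:**
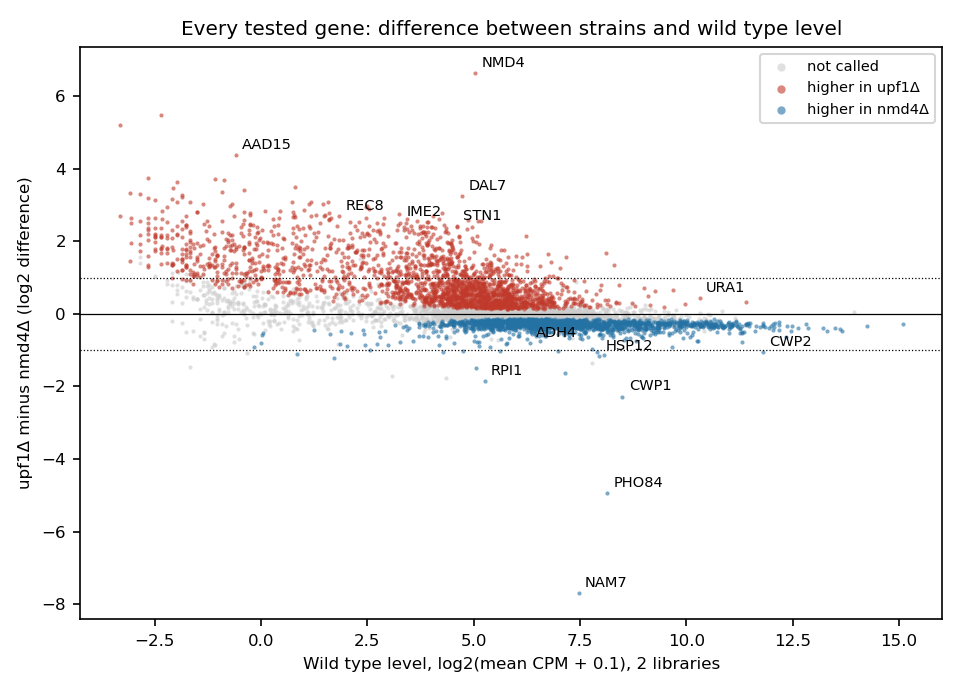
Log2 difference between upf1Δ and nmd4Δ (vertical axis) for each of the 6198 tested genes, against its wild type level as log2 of the mean CPM plus 0.1 (horizontal axis); dotted lines mark a 2-fold difference and named genes are labelled. Red points above the upper line lie mostly at low wild type levels, and few blue points pass the lower line, which are led by NAM7, PHO84 and CWP1.

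Wild type lay with nmd4Δ for nearly all of the large differences. Of the 838 genes at least 2-fold higher in upf1Δ, the mean wild type level (log2 of CPM plus 0.1) was nearer to nmd4Δ for 827 (98.7%), against 5063 of all 6198 tested genes (81.7%). The median difference from wild type over the 838 was 1.82 in upf1Δ and 0.19 in nmd4Δ, with quartiles of 0.030 and 0.41 in nmd4Δ. Over all tested genes the nmd4Δ median was 0.0003, with quartiles of -0.10 and 0.11. The median level of the 838 was 4.55 CPM in wild type, 5.39 CPM in nmd4Δ and 17.5 CPM in upf1Δ. Of the 16 genes higher in nmd4Δ, wild type was nearer to nmd4Δ for 15, so these were mostly genes that were low in upf1Δ. These differences share the wild type and nmd4Δ libraries with each other and with the choice of genes, so they are descriptions. Tested against wild type itself, nmd4Δ had 89 genes higher (1.44%) and 43 lower (0.694%), where upf1Δ had 2101 higher (33.9%) and 1878 lower (30.3%).

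Known NMD substrates were high in upf1Δ and near wild type in nmd4Δ. Of 21 mRNAs listed as documented substrates, 18 were higher in upf1Δ (85.7%, beside 34.3% of all tested genes) and 1 in nmd4Δ (4.76%, beside 27%). Their median log2 difference was 0.91, beside 0.0045 over all tested genes. Their median difference from wild type was 0.90 in upf1Δ and 0.048 in nmd4Δ. DAL7, a malate synthase of allantoin breakdown (YIR031C, chrIX:413015-414679, minus strand in RefSeq R64), stood at 291, 291 and 309 CPM in upf1Δ, at 31.1, 30.6 and 32.1 in nmd4Δ and at 26.3 and 26.6 in wild type. Its upf1Δ libraries were far above all others, 9.502-fold above nmd4Δ (log2 difference 3.25 ± 0.076, adjusted p = 8.02e-13). The member higher in nmd4Δ was UBP7, a ubiquitin protease, at 51.2, 54.8 and 55.8 CPM against 48.2, 46.2 and 47.9 in upf1Δ. Its difference was -0.19 ± 0.066 (adjusted p = 0.0242), and it lost the call when replicate 2 or 3 of either strain was left out.

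Genes of telomerase and telomere capping were high in upf1Δ. All 6 tested members were higher in upf1Δ, beside 34.3% of all tested genes, with a median of 1.64. STN1, which caps telomeres together with Cdc13 and Ten1 (chrIV:610441-611925, plus strand), stood at 132, 145 and 139 CPM in upf1Δ, 25.7, 26.8 and 25.3 in nmd4Δ and 24.3 and 24.02 in wild type, 5.35-fold between the strains (adjusted p = 2.08e-12). EST2, the reverse transcriptase of telomerase, was 4.65-fold higher and TEN1 4.64-fold higher. For STN1, TEN1 and EST2 the nmd4Δ level did not pass the test against wild type, with differences of 0.102, 0.102 and -0.06. The telomerase subunit EST1 was 2.09-fold higher in upf1Δ. CDC13 differed by 0.26 ± 0.081, a call that was lost without upf1Δ replicate 3 or without nmd4Δ replicate 1. In ebs1Δ, STN1 lay between the others, at 38.5, 41.4 and 43.5 CPM, above nmd4Δ by edgeR's test, which called 204 genes higher (3.29%) and 412 lower (6.65%) in nmd4Δ than in ebs1Δ (log2 difference nmd4Δ minus ebs1Δ -0.66, adjusted p = 9.75e-05).

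At EST3, the nmd4Δ level also differed from wild type. EST3 encodes a telomerase subunit whose reading frame needs a programmed +1 frameshift, and ribosomes that do not shift meet a stop codon early. The gene (YIL009C-A, chrIX:335666-336212, minus strand) stood at 76.5, 82.4 and 82.6 CPM in upf1Δ, 43.5, 40.6 and 43.4 in nmd4Δ, 49.00, 48.98 and 49.7 in ebs1Δ and 30.6 and 29.96 in wild type. The 3 genotypes were ordered with no overlap, upf1Δ above nmd4Δ above wild type. The nmd4Δ rise over wild type was 0.49 ± 0.064 (adjusted p = 0.000985), the upf1Δ rise was 1.41, and the strains differed by 0.92 ± 0.055 (adjusted p = 2.89e-09). By edgeR's test nmd4Δ was below ebs1Δ, which carries KlURA3 too (-0.21, adjusted p = 0.0311). Wild type lacked the marker, so marker and deletion cannot be told apart in the nmd4Δ rise of EST3 over wild type. Yeast has other mRNAs with such a frameshift. The sites of EST3 (chrIX:335923-335949, minus strand), of the antizyme OAZ1 (chrXVI:458993-459019, plus strand) and of the actin-binding tRNA methyltransferase ABP140 (chrXV:785675-785701, plus strand) are shown because all 3 end early without the shift. Capitals mark the 7 bases at which the frame changes, read from RefSeq R64 in the sense direction.
EST3: acaccaaataCTTAGTTgagttttccc
OAZ1: ggattggtgcGCGTGACatccctctag
ABP140: tgactcttgtCTTAGGCattgatcaac
Without a shift, 1 sense codon follows the EST3 site before a stop, none follows the OAZ1 site and 2 follow the ABP140 site. The distance from the start codon differed, with 92, 69 and 277 codons before the shift in proteins of 181, 292 and 628 residues. OAZ1 stood at 22.5, 29.9 and 26.1 CPM in upf1Δ and 21.9, 18.7 and 20.1 in nmd4Δ, a difference of 0.37 ± 0.11 (adjusted p = 0.01) that was lost without upf1Δ replicate 2 and with the nmd4Δ libraries of batch 2. ABP140 stood at 225, 242 and 241 CPM in upf1Δ and at 225, 223 and 232 in nmd4Δ. It differed by 0.06 ± 0.083 (adjusted p = 0.557), and its libraries overlapped.

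Meiotic genes with introns were mostly higher in upf1Δ. These are transcribed weakly in growing cells, and their introns are often left in outside meiosis, which can put an early stop codon in the reading frame. Of 13 such genes 12 were tested, and 9 were higher in upf1Δ (75%, beside 34.3% of all tested genes) and none in nmd4Δ (median 1.06). With at least 10 CPM required, 4 were tested and all 4 were higher. That average includes the upf1Δ libraries, so a member can reach it through upf1Δ alone. REC107, which helps to form meiotic DNA breaks (YJR021C, chrX:468555-469579, minus strand), stood at 95.4, 105 and 108 CPM in upf1Δ, 21.6, 19.4 and 24.3 in nmd4Δ and 19.3 and 20.8 in wild type. It was 4.73-fold higher in upf1Δ (adjusted p = 1.23e-10), and its nmd4Δ and wild type libraries overlapped. Its partners REC114 and MEI4 were 4.68-fold and 3.05-fold higher, the helicase HFM1 3.27-fold, the phospholipase-like SPO1 3.42-fold and the synapsis gene SPO22 2.27-fold. The recombinase DMC1, at 3.54, 3.37 and 4.04 CPM in upf1Δ and 4.097, 3.33 and 3.21 in nmd4Δ, did not pass (difference 0.04 ± 0.15). The recombination factor HOP2, at 2.02, 2.17 and 1.64 CPM in upf1Δ and 1.704, 1.53 and 1.48 in nmd4Δ, did not pass either (0.31 ± 0.21). The APC/C activator AMA1, at 3.54, 2.79 and 3.44 CPM in upf1Δ and 4.28, 4.22 and 3.65 in nmd4Δ, had all nmd4Δ libraries above those of upf1Δ, but the difference of -0.31 ± 0.16 did not pass. Counts per gene do not separate spliced from unspliced RNA.

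The 5′ ends of the first introns are shown for the 12 tested genes, 9 that were higher and 3 that did not pass, because a 5′ splice site far from the consensus can be spliced poorly outside meiosis. Of the genes that were higher, the stretches shown are REC107 at chrX:469248-469273 (minus strand), REC114 at chrXIII:537439-537464 (plus strand), SPO1 at chrXIV:609781-609806 (plus strand), HFM1 at chrVII:31563-31588 (minus strand), MEI4 at chrV:239696-239721 (minus strand), SPO22 at chrIX:225884-225909 (minus strand), MND1 at chrVII:157267-157292 (minus strand), REC102 at chrXII:786606-786631 (plus strand) and PCH2 at chrII:602094-602119 (plus strand). Those that did not pass are DMC1 at chrV:548543-548568 (plus strand), HOP2 at chrVII:435670-435695 (plus strand) and AMA1 at chrVII:946318-946343 (plus strand). Capitals mark the first 6 bases of the intron, in RefSeq R64.
REC107: gctacgaacgGTTCGTaccaacacag
REC114: catgaaatggGTATGTatgcatttgc
SPO1: ggaggccaaaGTAAGTtaaactcttt
HFM1: tctccaaataGTAGTAacgaagctta
MEI4: ctggataatcGTACGTgaaattgtca
SPO22: gagttatgcgGTATATaacaaaatgc
MND1: ttcaacaatgGTATGTctaataaaac
REC102: aatgttgaaaGTATGTttctcctagc
PCH2: caaatgctcgGTATGTttttttcttt
DMC1: cacagtcaatGTATGTtataataaca
HOP2: ggctcagaagGTTAAGtattttttta
AMA1: caagtctgtgGTACGTtattaagagc
The yeast consensus GTATGT stood in 4 of the 9 that were higher: REC114, whose intron lies near the end of the reading frame, MND1, REC102 and PCH2. The latter 3 were higher by 1.92-fold, 1.82-fold and 1.75-fold. Among the 3 that did not pass it stood in DMC1, while HOP2 began with GTTAAG and AMA1 with GTACGT, the same 6 bases as MEI4. Read through the intron, the reading frame reached a stop after 131 codons in REC107, 24 in HFM1, 37 in MEI4, 37 in SPO1, 20 in SPO22, 435 in REC114, 17 in MND1, 62 in REC102, 536 in PCH2, 90 in DMC1, 19 in HOP2 and 409 in AMA1. The protein from spliced REC114 mRNA has 428 residues, so its stop after 435 codons was not early. The PCH2 protein has 564 residues and the AMA1 protein 593. Among all tested genes with a coding intron outside the ribosomal proteins, and without those that reached the minimum only through upf1Δ, GTATGT opened the first intron in 10 of the 22 that were at least 2-fold higher in upf1Δ (45.5%) and in 114 of the 153 others (74.5%). The meiotic genes that were at least 2-fold higher are among the 22, and no test was made of this split.

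Meiotic genes that have no intron moved as well. Of 17 such genes 15 were tested, and 14 were higher in upf1Δ (93.3%, beside 34.3% of all tested genes) and none in nmd4Δ. MEK1, a meiotic kinase, reached the low-count minimum only through upf1Δ and so had to be higher. The list had a median of 1.83, and with at least 10 CPM required 6 were tested and all 6 were higher. Here too the average includes the upf1Δ libraries, so a member can reach it through upf1Δ alone. The meiotic kinase IME2 (YJL106W, chrX:221390-223327, plus strand) stood at 68.8, 75.5 and 75.03 CPM in upf1Δ, 11.7, 12.9 and 13.9 in nmd4Δ and 9.598 and 9.63 in wild type. All nmd4Δ libraries were above both wild type ones, and the small rise passed the test (0.41 ± 0.10, adjusted p = 0.0426), beside 5.71-fold between upf1Δ and nmd4Δ. REC8, the meiotic cohesin, was 6.44-fold higher, ZIP1 of the synaptonemal complex 4.64-fold and NDJ1, which tethers telomeres in meiosis, 3.82-fold. REC8 in nmd4Δ, at 5.004, 4.58 and 4.08 CPM, was above wild type at 3.39 and 3.54 in each library, but the difference did not pass (adjusted p = 0.138).

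Many early meiotic genes carry URS1, a promoter element through which Ume6 represses them in growing cells. The letters TAGCCGCC, searched on both strands in the 500 bases before the start codon, stood in 7 of these 15 promoters and in 132 of 5784 promoters of the same length (2.28%). Matches are shown for HOP1, ZIP1, MEK1 and NDJ1, with the element in capitals; all 4 read as its reverse complement on the gene's strand.
HOP1: ttaacctgGGCGGCTAaattgtac
ZIP1: ataccctcGGCGGCTAaattttta
MEK1: agaatgatGGCGGCTAaatttcgg
NDJ1: agaagttgGGCGGCTAttttgaca
They lie at chrIX:226423-226446, chrIV:1032408-1032431, chrXV:996644-996667 and chrXV:117527-117550 in RefSeq R64, in the order shown, with HOP1 and ZIP1 on the plus strand and MEK1 and NDJ1 on the minus strand. The MEK1 promoter holds another match close by. HOP1 stood at 16.98, 17.2 and 16.4 CPM in upf1Δ and 5.69, 4.42 and 5.25 in nmd4Δ. Whether the factor bound there was not measured.

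**Figure D2:**
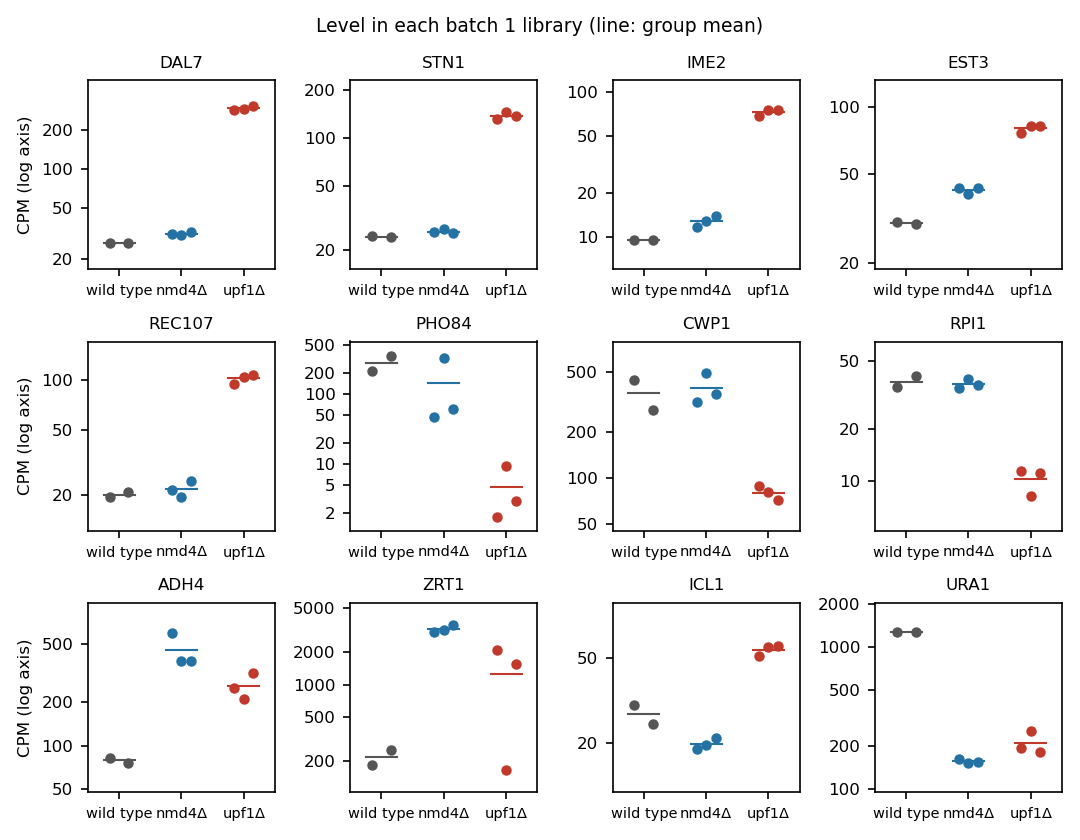
Level of 12 genes in each batch 1 library, as CPM on a log axis that differs between panels; grey points are wild type, blue nmd4Δ and red upf1Δ, and a line marks each group's mean. DAL7, STN1, IME2 and REC107 are far higher in upf1Δ than in nmd4Δ or wild type, EST3 is intermediate in nmd4Δ, PHO84, CWP1 and RPI1 are low in upf1Δ, and ADH4 and URA1 moved the same way in both deletion strains.

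Genes for poor nitrogen sources and for thiamine were higher in upf1Δ. Of 26 allantoin and nitrogen genes, 16 were higher in upf1Δ (61.5%, beside 34.3% of all tested genes) and none in nmd4Δ (median 0.56). The allantoate permease DAL5 stood at 109, 119 and 126 CPM in upf1Δ, 18.2, 18.4 and 18.3 in nmd4Δ and 16.6 and 16.2 in wild type, 6.45-fold between the strains. The NAD-dependent glutamate dehydrogenase GDH2 was 3.13-fold higher and the ammonium permease MEP2 2.72-fold. Of 25 thiamine and pyridoxine genes 21 were higher in upf1Δ (84%) and 3 in nmd4Δ (12%, beside 27% of all tested genes), with a median of 1.06. THI21 and THI22, of the hydroxymethylpyrimidine kinase family, were 5.12-fold and 4.89-fold higher, and the thiamine transporter THI72 3.52-fold. These families have near-identical members whose reads may be shared, so single members are uncertain. Against the majority, the thiamine-repressed phosphatase PHO3 was 1.38-fold higher in nmd4Δ and thiamine pyrophosphokinase THI80 1.22-fold.

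By size of difference, the genes highest in upf1Δ with at least 10 CPM over the 6 libraries and no overlap were, after the deleted NMD4, AAD15, DAL7, ABM1, HPA2, IRC10, ULI1, GTO3, JLP1, MAL31, FLO9, DAL5, REC8, GIT1 and DFP1. Their folds ran from 20.7 for AAD15 down to 6.26 for DFP1. AAD15, an aryl-alcohol dehydrogenase gene, stood at 23.5, 24.3 and 25.4 CPM in upf1Δ and 0.653, 1.16 and 1.78 in nmd4Δ; it, the maltose permease MAL31 and the flocculin FLO9 belong to families with near-identical members, so their values are uncertain. GIT1, a permease for glycerophosphoinositol, stood at 64.7, 60.2 and 62.8 CPM against 10.6, 9.597 and 9.72, and JLP1, a sulfonate dioxygenase, at 26.3, 26.8 and 28.9 against 3.84, 4.06 and 4.04. GTO3, a glutathione transferase, was low in replicate 2 of both strains, at 73.1, 35.3 and 69.6 CPM in upf1Δ and 9.06, 4.58 and 10.4 in nmd4Δ. IRC10 in nmd4Δ, at 7.51, 7.31 and 7.12 CPM, was above the wild type values of 5.28 and 5.74 and passed that test (adjusted p = 0.0456), while standing 7.81-fold below upf1Δ. In ebs1Δ, IRC10 stood at 8.63, 8.18 and 9.28 CPM, also above wild type.

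Few genes went the other way by a large amount, and they included genes of the cell wall, of stress and of mating. The 16 at least 2-fold higher in nmd4Δ were NAM7, PHO84, CWP1, RPI1, YRO2, WSC4, YER053C-A, HSP12, HXK1, COX26, CWP2, MFA1, ASG7, INH1, DDR2 and TDH1. CWP1, a mannoprotein of the cell wall (YKL096W, chrXI:261132-261851, plus strand), stood at 88.5, 80.5 and 71.99 CPM in upf1Δ, 318, 495 and 357 in nmd4Δ and 442 and 281 in wild type. The nmd4Δ and wild type libraries overlapped and all upf1Δ libraries were below them, 4.85-fold below nmd4Δ (log2 difference -2.28 ± 0.20, adjusted p = 6.46e-06). CWP2, a related wall protein, was 2.07-fold higher in nmd4Δ, and the wall stress sensor WSC4 2.83-fold. RPI1, a transcriptional regulator linked to the cell wall, stood at 11.3, 8.14 and 11.2 CPM in upf1Δ and 34.95, 39.4 and 36.4 in nmd4Δ, 3.61-fold apart, with wild type at 35.4 and 40.8. Over 16 cell wall protein genes, 10 were higher in nmd4Δ (62.5%, beside 27% of all tested genes) and 2 in upf1Δ (12.5%, beside 34.3%), with a median of -0.32. The latter 2 were PIR3, 4.77-fold higher in upf1Δ, and CRH1, whose call was lost without upf1Δ or nmd4Δ replicate 1.

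PHO84, the high-affinity phosphate transporter (YML123C, chrXIII:24037-25800, minus strand), gave the largest difference toward nmd4Δ after NAM7, with wide scatter between libraries. It stood at 1.79, 9.38 and 3.001 CPM in upf1Δ, at 47.6, 324 and 61.9 in nmd4Δ, at 57.3, 174 and 185 in ebs1Δ and at 212 and 353 in wild type. Replicate 2 was the highest in both deletion strains, and all upf1Δ libraries were below all others. The log2 difference was -4.93 ± 1.10 (adjusted p = 0.0062), and nmd4Δ did not pass against wild type (-0.97 ± 0.94, adjusted p = 0.615). An annotated RNA, YNCM0001W, overlaps PHO84 on the other strand, and the sources used here do not say whether the counting used strand, so reads of the pair cannot be told apart. Of 18 phosphate genes, PHO84 included, 6 were higher in upf1Δ (33.3%) and 7 in nmd4Δ (38.9%), beside 34.3% and 27% of all tested genes; the 7 became 4 with batch 2.

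Stress genes were divided. Of 27 heat shock and general stress genes, 8 were higher in nmd4Δ (29.6%, near the 27% of all tested genes) and 3 in upf1Δ (11.1%, beside the 34.3% of all), with a median of -0.40. The 8 became 5 without upf1Δ replicate 2, upf1Δ replicate 3 or nmd4Δ replicate 2 and with batch 2, and 14 with the replicate number as a block. HSP12, a small membrane-associated heat shock protein, stood at 34.7, 47.8 and 43.8 CPM in upf1Δ, 85.9, 114 and 82.9 in nmd4Δ and 269 and 228 in wild type. It was below wild type in both deletion strains (-2.56 in upf1Δ and -1.396 in nmd4Δ), and 2.24-fold higher in nmd4Δ than in upf1Δ. In ebs1Δ, which carries KlURA3 too, HSP12 stood at 72.4, 90.4 and 71.9 CPM. By edgeR's test nmd4Δ did not differ from ebs1Δ there (0.27, adjusted p = 0.255). Marker and deletion thus cannot be told apart in the nmd4Δ level below wild type. The membrane protein YRO2 was 3.11-fold higher in nmd4Δ and the stress gene DDR2 2.03-fold. The 3 members higher in upf1Δ were the HSP70 genes SSA3 (3.09-fold) and SSA4 (2.12-fold) and the catalase CTT1 (1.62-fold). Several of these genes varied between replicates, and HXK1, a hexokinase at 148, 91.1 and 107 CPM in upf1Δ and 262, 296 and 209 in nmd4Δ, lost its call without upf1Δ replicate 2 (adjusted p = 0.0524). Without nmd4Δ replicate 2, 9 genes in place of 16 were at least 2-fold higher in nmd4Δ. With replicate 2 of both strains left out, an alternative chosen after seeing the data, it was 10. YER053C-A, at 5.18, 8.87 and 6.16 CPM in nmd4Δ and 3.47, 1.82 and 3.44 in upf1Δ, was the member of the 16 whose wild type level, 3.05 and 3.38, lay nearer to upf1Δ, and it lost its call when batch 2 supplied the nmd4Δ libraries (adjusted p = 0.209).

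Highly expressed growth genes were slightly higher in nmd4Δ. Of 139 ribosomal protein genes 124 were higher in nmd4Δ (89.2%, beside 27% of all tested genes) and 4 in upf1Δ (2.88%, beside 34.3%). Their median was -0.29, and it stayed between -0.33 and -0.24 under every alternative. Of all 869 genes at 200 CPM or more in wild type, 66.3% were higher in nmd4Δ (median -0.26). The 869 include ribosomal protein genes such as RPS2, and expression level was not tested apart from this list. Of 37 nuclear genes of the respiratory chain and ATP synthase, 35 were higher in nmd4Δ (94.6%) and none in upf1Δ (median -0.50). COX4, a subunit of cytochrome c oxidase, stood at 54.1, 59.6 and 50.1 CPM in upf1Δ, 93.6, 100.02 and 83.9 in nmd4Δ and 95.01 and 92.7 in wild type. ATP2, the beta subunit of the ATP synthase, was 1.57-fold higher in nmd4Δ. In nmd4Δ, 17 of 21 glycolysis and fermentation genes were higher too (81%, median -0.40), such as PGK1 at 1.38-fold. Against these lists, RPL22B, the minor paralog of a large-subunit protein with a regulated intron, was 2.98-fold higher in upf1Δ, and PDC6, a minor pyruvate decarboxylase, 1.84-fold. Paralogs of ribosomal protein genes can share reads. Of 30 nucleolar ribosome assembly genes, 4 were higher in nmd4Δ (13.3%, beside 27% of all tested genes) and 1 in upf1Δ (3.33%, beside 34.3%). The 4 became 1 without upf1Δ replicate 1, 9 without upf1Δ replicate 2, 2 without replicate 3 of either strain and 0 with batch 2.

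MATa-specific genes were higher in nmd4Δ. The strains are MATa, and 6 of 7 MATa-specific genes were higher in nmd4Δ (85.7%, beside 27% of all tested genes), with a median of -0.73. That count held under every alternative. MFA1, a gene for the a-factor pheromone, stood at 73.3, 109.5 and 87.00 CPM in upf1Δ, 174, 218 and 164 in nmd4Δ and 228 and 253 in wild type, 2.06-fold between the strains. BAR1, the protease that destroys alpha-factor, was 1.66-fold higher in nmd4Δ, and both strains were below wild type (-1.23 in upf1Δ and -0.502 in nmd4Δ, the latter with adjusted p = 0.0395). In ebs1Δ, which carries KlURA3 too, BAR1 stood at 256, 306 and 309 CPM. By edgeR's test nmd4Δ did not differ from ebs1Δ there (-0.15, adjusted p = 0.323). Marker and deletion thus cannot be told apart in the nmd4Δ level of BAR1 below wild type. Of 4 tested MATalpha-specific genes, 2 were higher in upf1Δ (50%, beside 34.3% of all tested genes) and none in nmd4Δ. SAG1, the alpha-agglutinin, was 4.46-fold higher in upf1Δ and the a-factor receptor STE3 1.66-fold. The alpha-factor genes MF(ALPHA)1, at 0.43, and MF(ALPHA)2, at -0.62, missed the threshold.

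**Figure D3:**
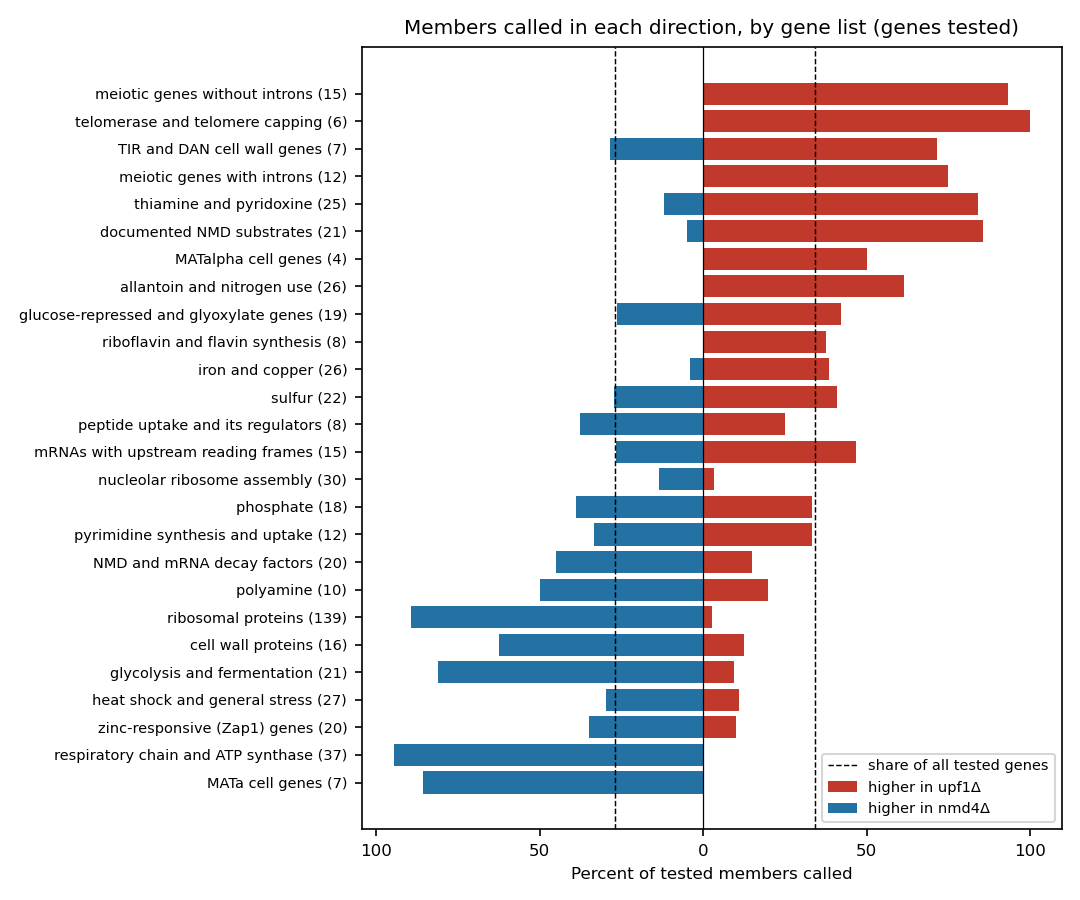
Share of tested members of each of 26 gene lists that were higher in upf1Δ (red, to the right) or in nmd4Δ (blue, to the left), in percent, ordered by median difference with the number of genes tested in brackets; dashed lines mark the shares over all tested genes. Telomere, meiotic, thiamine and NMD substrate lists reach past 70% to the right, and respiratory, ribosomal, glycolytic and MATa lists past 80% to the left.

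Zinc-responsive genes differed in part. Of 20 genes linked to the zinc-sensing activator Zap1, 7 were higher in nmd4Δ (35%, beside 27% of all tested genes) and 2 in upf1Δ (10%, beside 34.3%), with a median of -0.41. Under the alternatives 6 to 9 were higher in nmd4Δ and 2 to 5 in upf1Δ. ZRT3, the transporter that releases zinc from the vacuole, stood at 573, 552 and 624 CPM in nmd4Δ, 404, 171 and 323 in upf1Δ and 204 and 236 in wild type. Its difference was -0.96 ± 0.33 (adjusted p = 0.0339), and it lost the call when upf1Δ replicate 3 or any 1 nmd4Δ library was left out, and with the nmd4Δ libraries of batch 2. Against wild type nmd4Δ did not pass (1.41 ± 0.38, adjusted p = 0.118). ADH4, an alcohol dehydrogenase, and ZRT1, the high-affinity zinc transporter, were chosen after their values were seen. ADH4 stood at 595, 379.7 and 382 CPM in nmd4Δ, 249, 208 and 315 in upf1Δ, 121, 113 and 109 in ebs1Δ and 82.8 and 76.3 in wild type. Its nmd4Δ libraries were above all others, 1.76-fold above upf1Δ (adjusted p = 0.00425), and the nmd4Δ rise over wild type was 2.51 ± 0.23 (adjusted p = 0.000577) beside 1.69 in upf1Δ. ZRT1 stood at 3048, 3165 and 3487 CPM in nmd4Δ, at 2074, 164 and 1536 in upf1Δ and at 184 and 253 in wild type. One upf1Δ library, replicate 2, was as low as wild type, and the ZRT1 difference of -1.36 ± 1.10 did not pass (adjusted p = 0.319). In ebs1Δ, too, ZRT1 was high in one library and low in the others, at 2337, 409.7 and 178 CPM. The low-affinity transporter ZRT2 went the other way and was 1.75-fold higher in upf1Δ.

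The peptide transporter PTR2 was high in both strains. It stood at 67.3, 74.00 and 70.4 CPM in nmd4Δ, 50.95, 40.7 and 56.99 in upf1Δ, 60.3, 52.8 and 58.2 in ebs1Δ and 16.2 and 16.6 in wild type. The nmd4Δ rise over wild type was 2.11 ± 0.12 (adjusted p = 2.05e-07) and the upf1Δ rise 1.597, with the strains 1.42-fold apart (adjusted p = 0.000549). By edgeR's test nmd4Δ did not differ at PTR2 from ebs1Δ, which carries KlURA3 too (0.31, adjusted p = 0.0609). Wild type lacked the marker, so marker and deletion cannot be told apart in these rises over wild type. CUP9, the repressor of PTR2 transcription, was below wild type in nmd4Δ (-0.41, adjusted p = 0.0465) and at -0.297 in upf1Δ, and the strains' difference of 0.12 ± 0.090 did not pass. The same limit of the marker holds for CUP9 beside wild type. OPT1, an oligopeptide transporter, was 1.53-fold higher in nmd4Δ, and SSY1, the amino acid sensor at the plasma membrane, 2.25-fold higher in upf1Δ.

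For a few genes of carbon use the strains lay on opposite sides of wild type. Of 19 glucose-repressed and glyoxylate genes, 8 were higher in upf1Δ (42.1%, beside 34.3% of all tested genes) and 5 in nmd4Δ (26.3%, beside 27%), with a median of 0.27. The 8 became 5 without nmd4Δ replicate 1 and 4 with batch 2, and the 5 became 3 without upf1Δ replicate 1 or nmd4Δ replicate 2 or 3. Isocitrate lyase ICL1 stood at 51.3, 56.6 and 56.9 CPM in upf1Δ, 30.2 and 24.6 in wild type and 18.8, 19.6 and 21.1 in nmd4Δ, with no overlap between these genotypes. Its difference from wild type was 1.004 in upf1Δ and -0.47 ± 0.10 in nmd4Δ (adjusted p = 0.0258), and the strains were 2.77-fold apart (adjusted p = 2.6e-09). PCK1, which opens gluconeogenesis, was ordered the same way, at 38.3, 35.1 and 36.4 CPM in upf1Δ, 16.1 and 13.8 in wild type and 10.3, 9.84 and 9.51 in nmd4Δ. In ebs1Δ, which carries the marker too, ICL1 was at 21.8, 25.5 and 22.8 CPM. By edgeR's test nmd4Δ did not differ from ebs1Δ at ICL1 (-0.24, adjusted p = 0.0932), so marker and deletion cannot be told apart in its level below wild type. PCK1 in ebs1Δ was at 13.8, 18.3 and 12.9 CPM, and nmd4Δ was below it (-0.61, adjusted p = 0.00835). The cytosolic malate dehydrogenase MDH2, chosen after its values were seen, was instead low in both, at 75.3, 91.9 and 68.5 CPM in upf1Δ and 55.8, 71.7 and 61.8 in nmd4Δ against 339 and 316 in wild type. Marker and deletion cannot be told apart in that comparison with wild type.

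A second group of genes was far from wild type in both strains and close together between them. All deletion strains carried KlURA3, and the wild type did not. URA1, dihydroorotate dehydrogenase of pyrimidine synthesis, stood at 193, 255 and 183 CPM in upf1Δ, 164, 151 and 154 in nmd4Δ, 174, 215 and 204 in ebs1Δ and 1271 and 1279 in wild type. Its difference from wild type was -2.600 in upf1Δ and -3.03 in nmd4Δ, and the strains differed from each other by 0.43 ± 0.11 (adjusted p = 0.00466), a call lost with replicate 2 of both strains left out. URA4, dihydroorotase, differed from wild type by -1.81 in upf1Δ and -1.68 in nmd4Δ, and between the strains by -0.13 ± 0.068 (adjusted p = 0.119). RIB4, lumazine synthase of the riboflavin pathway, differed from wild type by -2.04 and -2.18, and between the strains by 0.14 ± 0.068 (adjusted p = 0.0884). Marker and deletion cannot be told apart in a comparison with wild type, but both strains of the direct comparison carry the marker. In the same pathways, URA10, the minor orotate phosphoribosyltransferase, was 4.76-fold higher in upf1Δ, at 54.00, 54.8 and 60.9 CPM against 12.7, 12.2 and 10.6, with wild type at 11.4 and 10.7. Riboflavin kinase FMN1 was 2.498-fold higher. PPR1, the activator of the pyrimidine genes and a known NMD substrate, differed by 0.59 ± 0.10.

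Small rises in nmd4Δ accompanied large ones in upf1Δ at several genes. Beside EST3 and IME2, the thiamine-linked PET18 stood at 82.02, 88.4 and 88.2 CPM in upf1Δ, 14.9, 15.7 and 15.5 in nmd4Δ and 10.9 and 10.1 in wild type, and its nmd4Δ rise passed the test (0.54 ± 0.11, adjusted p = 0.0211). The cell wall mannoprotein gene TIR4 stood at 65.99, 69.5 and 74.9 CPM in upf1Δ, at 11.9, 13.9 and 12.4 in nmd4Δ and at 9.33 and 9.12 in wild type (nmd4Δ rise 0.46 ± 0.10, adjusted p = 0.0267). In each of these cases the 3 genotypes did not overlap. In ebs1Δ, which carries KlURA3 too, IME2 stood at 14.8, 13.3 and 15.1 CPM and TIR4 at 14.2, 13.2 and 15.2. By edgeR's test nmd4Δ did not differ from ebs1Δ at IME2 (adjusted p = 0.185) or TIR4 (adjusted p = 0.226). Wild type lacked the marker, so marker and deletion cannot be told apart in these rises over wild type. TIR4 belongs to a list of 8 TIR and DAN wall genes, of which 7 were tested. Of these, 5 were higher in upf1Δ (71.4%, beside 34.3% of all tested genes). The other 2, TIR1 and TIR3, were higher in nmd4Δ (28.6%, near the 27% of all tested genes). Both calls toward nmd4Δ were lost without nmd4Δ replicate 2 and with batch 2, and that of TIR3 also without any 1 upf1Δ library.

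**Figure D4:**
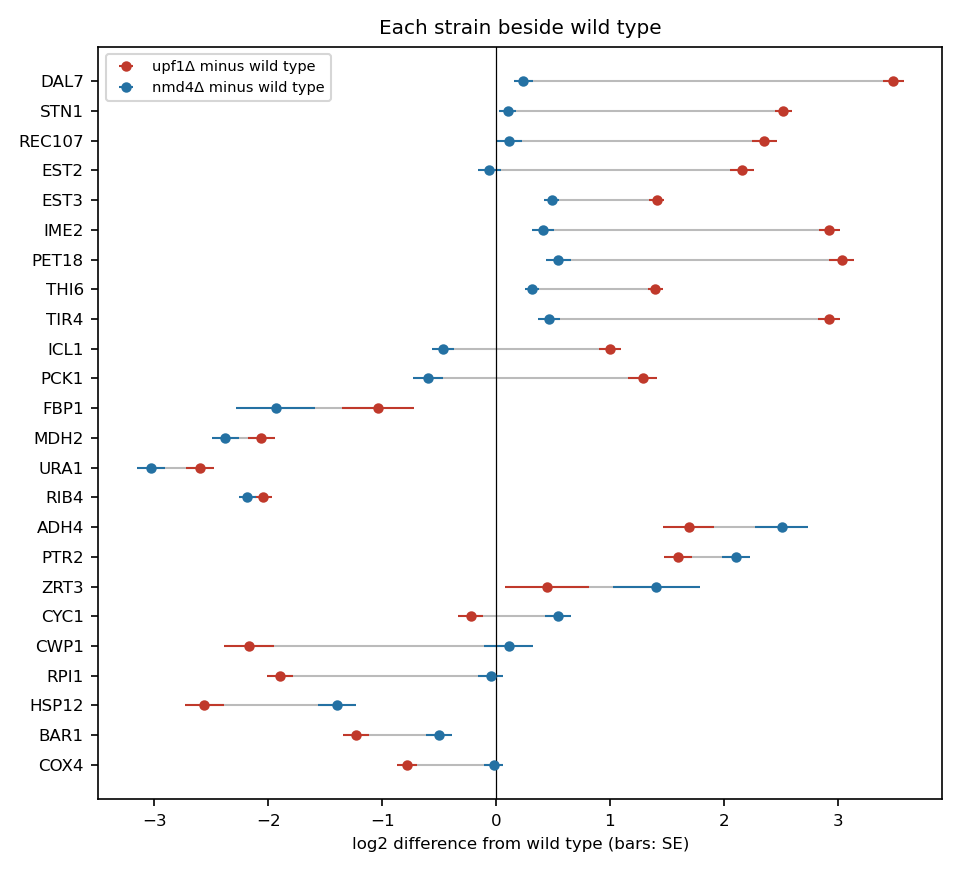
Log2 difference from wild type of upf1Δ (red) and nmd4Δ (blue) for 24 genes, with bars of 1 standard error; a grey line joins the 2 values of a gene. In most of the upper genes only upf1Δ is far from 0, ICL1 and PCK1 lie on opposite sides of 0, URA1 and RIB4 are low in both, and ADH4 and PTR2 are higher in nmd4Δ than in upf1Δ.

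Of 15 mRNAs with a known upstream reading frame, 7 were higher in upf1Δ (46.7%, beside 34.3% of all tested genes) and 4 in nmd4Δ (26.7%, beside 27%), with a median of -0.02 that changed sign under some alternatives. Without nmd4Δ replicate 1 the 7 became 4, the 4 became 2 without replicate 2 of either strain, and with batch 2 none was higher in nmd4Δ. CPA1, a subunit of carbamoyl phosphate synthetase whose leader peptide stalls ribosomes, stood at 962, 909 and 921 CPM in upf1Δ, 316, 399.96 and 379 in nmd4Δ and 329.7 and 299.7 in wild type, 2.55-fold between the strains. GCN4, the activator of amino acid synthesis, differed by 0.26 ± 0.074, INO2, an activator of phospholipid synthesis, by 0.49 ± 0.064, and YAP1, an oxidative stress regulator, by 0.22 ± 0.064, a call lost without nmd4Δ replicate 1 (adjusted p = 0.0726). HAP4, the activator of respiratory genes, was higher in nmd4Δ by 1.87-fold, at 46.6, 43.8 and 44.8 CPM against 29.5, 16.7 and 26.2 in upf1Δ and 32.6 and 50.7 in wild type, a call lost with the nmd4Δ libraries of batch 2 (adjusted p = 0.08). Of 20 NMD and decay factors, 9 were higher in nmd4Δ (45%, beside 27% of all tested genes) and 3 in upf1Δ (15%, beside 34.3%). The 9 include the deleted NAM7 and the 3 the deleted NMD4, calls that the deletions fixed. Apart from the deleted genes, EBS1 was 1.72-fold higher in upf1Δ and the decapping activator PAT1 1.25-fold higher in nmd4Δ.

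The RNAs that differed most were weakly expressed in wild type. Of 1122 tested genes under 10 CPM in wild type, 123 reached the low-count minimum only through upf1Δ and so could enter only if higher there; of the other 999, 431 were at least 2-fold higher in upf1Δ (43.1%). From 10 to 50 CPM it was 292 of 2047 (14.3%), from 50 to 200 CPM 28 of 2160 (1.30%), and at 200 CPM or more 2 of 869 (0.230%). Genes higher in nmd4Δ by any size ran the other way, from 2.05% of those under 10 CPM to 66.3% of those at 200 CPM or more.

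Many genes near chromosome ends were 2-fold higher in upf1Δ. Without those that reached the low-count minimum only through upf1Δ, 111 of 181 genes within 20 kb of an end (61.3%) were 2-fold higher, against 9.33% of 5542 elsewhere. The difference was there at like wild type levels: under 10 CPM it was 82.3% of 96 genes near ends and 39.8% of 575 others, and from 10 to 50 CPM it was 58% of 50 and 13.2% of 1975. Repeated families lie near ends and can share reads. With the same genes set aside, those with a coding intron outside the ribosomal proteins stood at 12.6% of 175, beside 11.2% of 5415 without an intron. Of 343 genes that RefSeq R64 does not list, 125 were 2-fold higher in upf1Δ (36.4%); under 10 CPM in wild type, where most of them lie, the share was 38.6%, against 45.3% of listed genes at that level. No test was made of these shares.

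**Figure D5:**
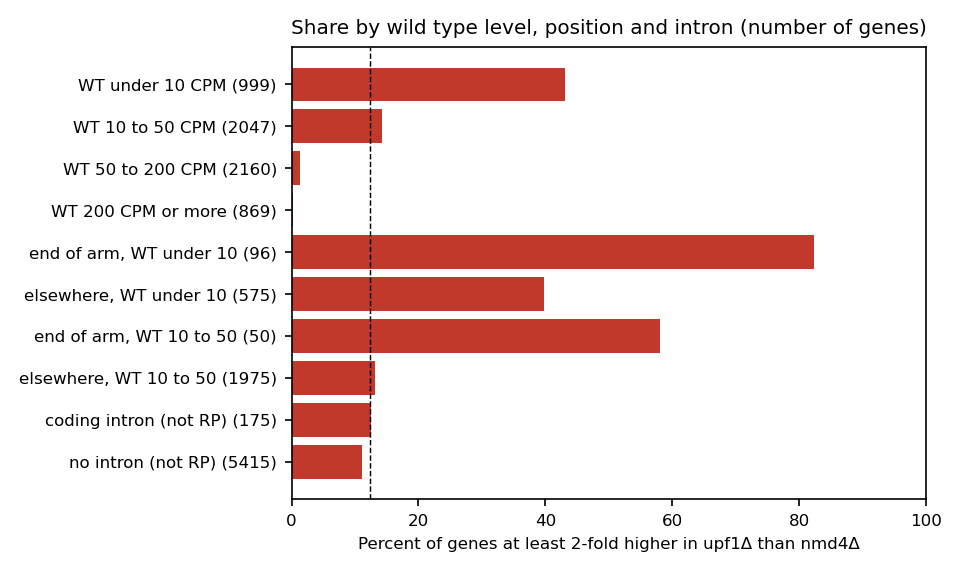
Share of genes, in percent, that were at least 2-fold higher in upf1Δ than in nmd4Δ, by wild type (WT) level, by position within 20 kb of a chromosome end, and by presence of a coding intron outside ribosomal protein (RP) genes; genes that reached the low-count minimum only through upf1Δ are left out, the number of genes is in brackets and the dashed line marks the share over all 6075 genes kept (12.4%). The share falls from 43.1% under 10 CPM to 0.230% at 200 CPM or more, and is higher near chromosome ends at both levels shown.

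The second batch of nmd4Δ libraries left most of the large differences in place. With its replicates 4 to 6 in place of 1 to 3, and a batch term that the wild type libraries of both batches set, 735 genes were at least 2-fold higher in upf1Δ, of which 700 were among the 838, and 25 were at least 2-fold higher in nmd4Δ. CWP1 stood at 302, 473 and 319 CPM in these libraries, PHO84 at 47.1, 298 and 58.98 and EST3 at 42.5, 44.3 and 40.6. No gene of 6198 passed edgeR's test for a different nmd4Δ effect between batches at an adjusted 0.05, and 73 had an unadjusted p under 0.05. Replicates 4, 5 and 6 resembled 1, 2 and 3 in turn in a chi-square per degree of freedom (9.34 to 12.48 within those pairs and 25.1 to 41.9 between other libraries of the 2 batches). Within batch 1 it was 12.53 for replicates 2 and 3, 14.95 for 1 and 3 and 24.7 for 1 and 2. The closest libraries of batch 1 were thus nearly as close as some of those pairs, but none was closer than any of them. The sources used here do not say whether the 2 batches share cultures or RNA. If they do, few differences between batches could appear, so the test between batches is not independent support. This batch is not counted as further replicates.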

How the data were processed

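The authors deposited whole-number read counts per gene, 1 column per library, for 17 libraries. The submitters' processing notes name the sacCer3 build, the aligner STAR 2.7.11a and, for counting, featureCounts of Subread 2.0.5; the sources used here do not give the annotation, the strand setting or how multiply aligned reads were treated. Gene names, coordinates, introns and sequences came from RefSeq R64, which lists 6008 of the 6692 genes.

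From the deposited counts, edgeR 4.0.16 in R 4.3.3 (limma 3.58.1) fitted 11 batch 1 libraries by genotype, with TMM scaling, filterByExpr and robust quasi-likelihood, leaving 7 residual degrees of freedom. Batch 2 held nmd4Δ and wild type only and was kept for a check. Levels are CPM on TMM-scaled totals; log2 differences are upf1Δ minus nmd4Δ unless stated, with standard errors, and genes are called at an adjusted p under 0.05 over all tested genes. The 26 gene lists and the comparison itself were chosen with earlier results of these data known. Genes named are the deleted ones, the 15 largest differences in each direction among called genes of at least 10 CPM without overlap, 4 called members per list by lowest p with up to 2 against its majority, members of lists of up to 15 genes, and the 16 genes 2-fold higher in nmd4Δ; ADH4, ZRT1, MDH2, HOP1, MEK1 and ABP140 are outside that rule.

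Same-numbered upf1Δ and nmd4Δ libraries deviated together from their group means (correlations of 0.102, 0.109 and 0.103 over 5507 genes), so a fit with the replicate number as a block was an alternative. Others were 2 further scalings, DESeq2 1.42.0, limma voom, other count filters, other sets of libraries and each library left out. On counts simulated from these libraries, the fit recovered 94.9% of 98 genes changed 2-fold and 82% of 100 changed 1.5-fold, with 8 false calls among 183. That run held 6140 genes, so few were changed, while 61.3% of tested genes were called in the data. How the fit performs with so many genes changed was not tested. P-values measure the spread between libraries called biological replicates in the labels. Library depth, 19750807 to 29668069 counts in batch 1, limits precision for genes under about 1 CPM most.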

Additional observations from a re-analysis of the deposited data

How the results depend on the processing

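The counts of 2124 and 1674 genes kept their size within 1.5 times under other scalings, tests and low-count rules, except where named here. With at least 10 CPM on average required, 427 genes in place of 838 were at least 2-fold higher in upf1Δ and 9 in place of 16 in nmd4Δ. Fewer genes enter that test, and its average includes the upf1Δ libraries. With the nmd4Δ libraries of batch 2, 1061 genes in place of 1674 were higher in nmd4Δ and 25 were at least 2-fold higher; the cause was not tested. Leaving out 1 library at a time gave 1843 to 2081 genes higher in upf1Δ, 1385 to 1839 higher in nmd4Δ, 787 to 841 at least 2-fold higher in upf1Δ and 9 to 23 at least 2-fold higher in nmd4Δ; the 9 came without nmd4Δ replicate 2, of which 8 were among the 16. With replicate 2 of both strains left out, added after seeing the data, 10 genes were at least 2-fold higher in nmd4Δ. With the replicate block, the counts were 2157, 1773, 839 and 19, LEU4 and OPT2 gained a call and no named gene lost one. No named gene that was called changed direction under any alternative, and the median of all genes moved by -0.046 to 0.014. The sign of the list median changed under some alternatives for upstream reading frames, peptide uptake, phosphate, iron and copper, and nucleolar assembly.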

Other observations

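Of 26 iron and copper genes, 10 were higher in upf1Δ (38.5%, beside 34.3% of all tested genes) and 1, the copper transporter CTR1, in nmd4Δ (3.85%, beside 27%), which became 3 without nmd4Δ replicate 2; FRE3, a ferric reductase for siderophores, differed by 1.90 on the log2 scale and FIT1, a cell wall mannoprotein that holds siderophore iron, by 0.84. Of 22 sulfur genes 9 were higher in upf1Δ (40.9%) and 6 in nmd4Δ (27.3%), near the shares over all tested genes. The sulfate assimilation genes MET14, MET10 and MET3 differed by 1.37, 1.27 and 1.00, and MET1, which makes the siroheme cofactor of sulfite reductase, by 2.56. The methionine synthase MET6 and cystathionine beta-synthase CYS4 went the other way, by -0.57 and -0.52. Of 10 polyamine genes 5 were higher in nmd4Δ (50%, beside 27% of all tested genes) and 2 in upf1Δ (20%, beside 34.3%). The 2 became 1 without upf1Δ replicate 2 and with batch 2. The 5 became 4 in those settings and without upf1Δ replicate 3 or nmd4Δ replicate 2. The polyamine exporter TPO2 was below wild type in both strains, by -2.60 in upf1Δ and -1.71 in nmd4Δ, and differed between them by -0.89. Wild type lacked KlURA3, so marker and deletion cannot be told apart in the TPO2 levels below wild type.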
